A study of Danio rerio with 6 samples.

Results

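Small nucleolar RNAs (snoRNAs) and small Cajal body RNAs (scaRNAs) were examined in adult zebrafish whole kidney marrow, the tissue in which fish form blood. The members are all genes whose symbol, letter case ignored, begins with snora, snord or scarna. They number 78 of the 32057 genes in the table, of which 22 are box H/ACA snoRNA genes (snora symbols), 54 are box C/D snoRNA genes (snord symbols) and 2 are scaRNA genes. The fish were wild type or heterozygous for rad21nz171 (labelled rad21+/-), an allele of rad21a with a nonsense mutation in exon 8. rad21a encodes a subunit of cohesin, a protein ring that encircles DNA and acts in chromosome segregation and in folding the genome. The mutation is in the germ line, so all cells of a heterozygous fish carry it, and the wild-type fish came from the same incrosses of heterozygotes. Each genotype had 3 libraries, each made from the pooled marrow of 3 fish, numbered here 1 to 3 within a genotype. The labels give no age beyond adult and no sex. Values between single fish were averaged by the pooling.

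Box C/D snoRNAs guide the enzyme fibrillarin to sites of ribose methylation in ribosomal RNA, and box H/ACA snoRNAs guide the enzyme dyskerin to sites where uridine is turned into pseudouridine. A few members of each class act in the cutting of the ribosomal RNA precursor instead. The scaRNAs carry the same motifs, stay in Cajal bodies and guide the modification of the small RNAs of the spliceosome. In vertebrates most of these RNAs are released from introns of other genes, often genes for ribosomal proteins, and the mature forms carry no poly(A) tail. The labels name the Illumina TruSeq RNA kit, version 2, and do not say whether poly(A) RNA was selected, so whether these values follow the level of the mature RNAs was not tested.

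Values are in TPM, a unit that divides reads by gene length and then scales each library to a fixed total, so read depth is not kept. A library had between 25643 and 26455 genes above 0. Wild-type pools 2 and 3 stood apart from the others: the 12 egg and gonad marker genes found, of 14 listed, had sums of 6625 and 1798 TPM there, whereas the remaining 4 libraries had 3.32 to 106 TPM. None of the 12 was at 0 in all libraries. Kidney marrow markers were present in every library, from lyz (neutrophils, at least 13257 TPM) and hbaa1 (red cells, at least 10548 TPM) to ighm (B cells, at least 40.1 TPM). Other marker sums set libraries apart. The 5 interrenal genes found, of 6 listed, reached 56.5 TPM in sum for heterozygous pool 2 and 128 TPM for heterozygous pool 3, with at most 10.1 TPM elsewhere, and the 2 neutrophil genes found to 41776 TPM in heterozygous pool 1 and to at most 20081 TPM elsewhere. The 3 B cell genes summed to 51.0 to 143 TPM in wild-type and 195 to 647 TPM in heterozygous libraries, and the 3 skeletal muscle genes found, of 6 listed, to 16.9 to 30.8 TPM and 3.06 to 6.66 TPM. The part of these other cells in the results that follow was not tested, apart from the fits without wild-type pools 2 and 3. In a bulk sample, fewer cells of a type and less RNA per cell cannot be told apart. The mutated gene rad21a stood at 110, 73.9 and 108 TPM across wild-type pools, against 67.4, 61.6 and 61.98 TPM across heterozygous pools, without overlap (limma adjusted p = 0.30).

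Most members were low or listed at 0. Of the 78 genes, 32 were at 0 in all 6 libraries, 46 were above 0 in at least 1 library and 16 in all 6. Box C/D genes were listed at 0 throughout in 30 of 54 cases, among them all copies of snord118b, a family named after the box C/D RNA that in vertebrates is needed for large-subunit ribosomal RNA processing, and the copies of snord79 and snord80. Of the box H/ACA genes, 2 of 22 were at 0 throughout, 1 copy each of SNORA71 and SNORA75. Both scaRNA genes were detected. In single libraries, 27 to 32 members were above 0, in ranges that overlapped between the genotypes.

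Tests used genes with at least 1 TPM in at least 3 libraries. That left 28 members, 13 of box H/ACA, 14 of box C/D and 1 scaRNA. A further 18 members were above 0 somewhere and were not tested, with no value above 4.93 TPM. Of the 28, 2 were at 0 in every wild-type pool and so passed the filter through the heterozygous pools alone.

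**Figure D1:**
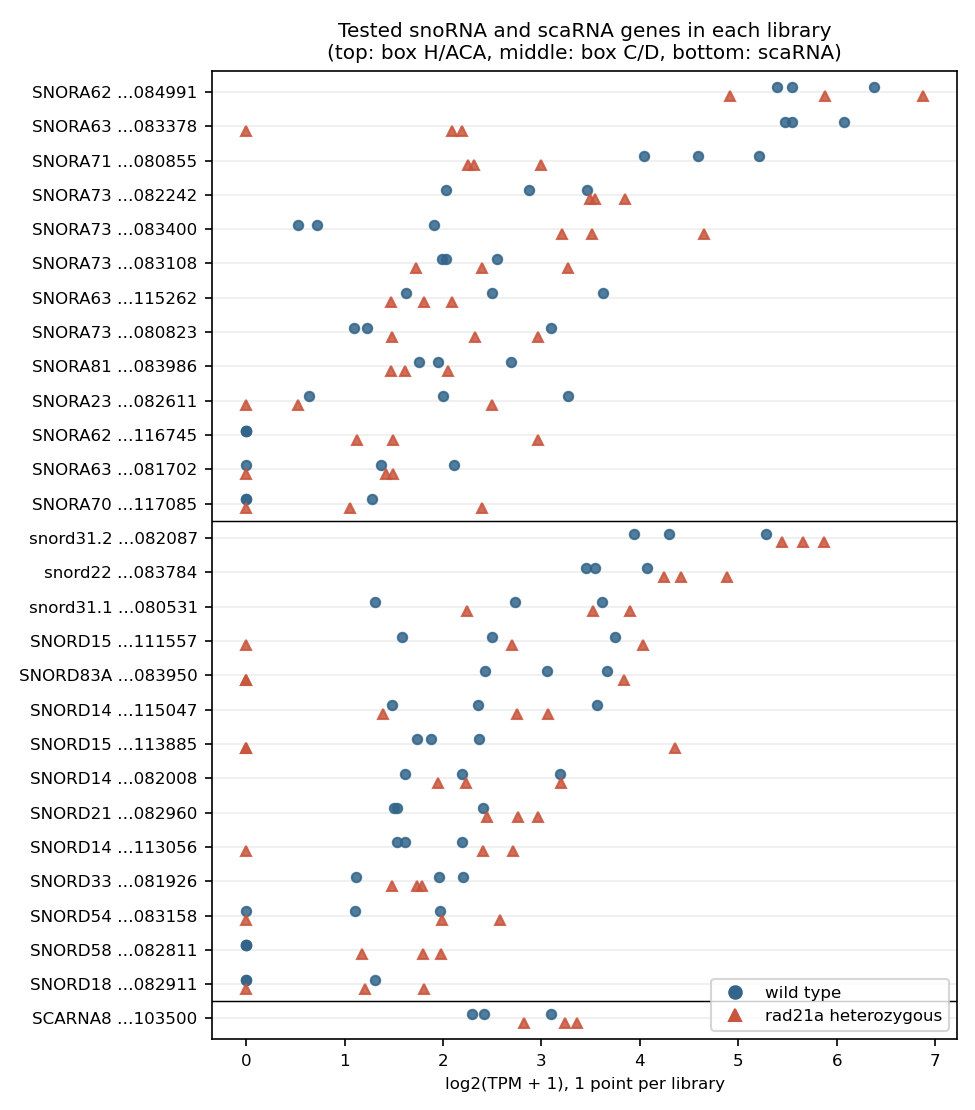
Level of each of the 28 tested members, as log2(TPM + 1) on the horizontal axis, with 1 point per library (circles, wild type, triangles, heterozygous) and genes ordered by mean level within each class. SNORA62, SNORA63 and snord31.2 reach the highest values, most other genes lie below 4 on this scale, and 1 copy of SNORA63 (ENSDARG00000083378) shows wild-type points far to the right of the heterozygous ones.

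The summed level of the whole set overlapped between genotypes. It came to 306, 199 and 266 TPM for wild-type pools 1 to 3, and to 307, 219 and 267 TPM for heterozygous pools 1 to 3. Box C/D genes summed to 99.7, 65.5 and 88.1 TPM across wild-type pools, against 131, 138 and 122 TPM across heterozygous pools, with means of 84.4 ± 17.4 and 130.5 ± 7.89 TPM (SD, n = 3 each) and no overlap. snord31.2 and snord22 together held 50.2% of the mean box C/D sum, and the gap between the genotypes rested on them. With both taken out, wild-type pool 1 would lie above every heterozygous pool. Box H/ACA genes summed to 199, 129 and 171 TPM and to 169, 72.1 and 137 TPM, which overlapped. SNORA62 and SNORA63, copies included, held most of the box H/ACA sum. Without those symbols the wild-type pools had 76.7, 32.2 and 38.7 TPM and the heterozygous pools 43.3, 35.9 and 63.5 TPM. The scaRNA pair summed to 7.59, 3.91 and 7.25 TPM and to 6.05, 9.29 and 8.42 TPM. No test was made of these sums.

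**Figure D2:**
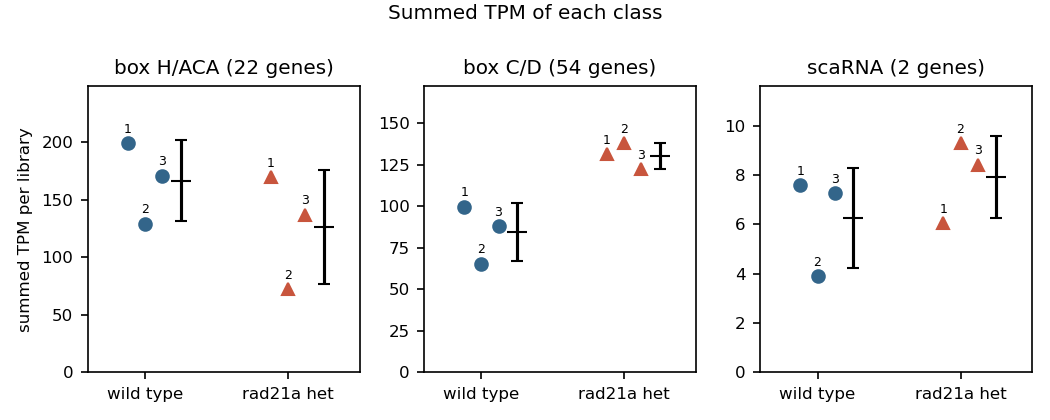
Summed TPM of all members of a class in each library (points, numbered by pool, the vertical axes starting at 0), with the mean and SD of the 3 libraries of a genotype as a bar beside them. The box C/D sums of the heterozygous pools, 122 to 138 TPM, all lie above those of the wild-type pools, 65.5 to 99.7 TPM, and the other classes overlap. Without snord31.2 and snord22 the box C/D sums would overlap too.

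Two-sided limma tests over all 16537 tested genes put 2 of the 28 members past an adjusted p of 0.05, 1 lower and 1 higher in the heterozygotes. Of all tested genes 1.37% were called, 0.562% lower and 0.810% higher. The higher member, SNORD58, was at 0 in every wild-type pool and was tested only because the heterozygous pools were high, so the filter had already fixed its direction. Of the 39 tested genes at 0 in every library of 1 genotype, 74.4% were called. Among the 26 members above 0 in both genotypes 1 was called, against 1.20% of all such genes, and 6 had an unadjusted limma p under 0.05, against 14.8%. The genotypes did not overlap for 7 of the 26, against 21.5%, and the log2 fold change was positive for 14, against 48.0%. Among all tested genes 15.0% had an unadjusted p under 0.05, 21.7% did not overlap and 48.1% were positive. The split of all calls moved with the scaling, from 134 higher of 227 here to 183 of 260 after quantile normalization and 185 of 276 after median ratio scaling.

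Over the 28 members the median log2 fold change was 0.12 for box H/ACA genes and 0.31 for box C/D genes, beside -0.02 over all tested genes. Each of these classes holds 1 member at 0 in every wild-type pool, whose positive sign the filter had fixed. Both medians would be lower without that member. The box C/D median would then be 0.12, the value of SNORD14 copy ENSDARG00000082008. The box H/ACA median would lie midway between -0.19 (SNORA63 copy ENSDARG00000081702) and 0.12 (SNORA62 copy ENSDARG00000084991). These medians turned or shrank with the libraries and the filter. When the libraries rich in egg transcripts, wild-type pools 2 and 3, were left out they were -0.13 and -0.11, beside 0.15 over all genes, and with no filter -0.13 and 0.03. The fit lacking those pools has 1 wild-type library left and takes its spread from the heterozygous pools. Whether a member is called in that fit rests on that 1 library.

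**Figure D3:**
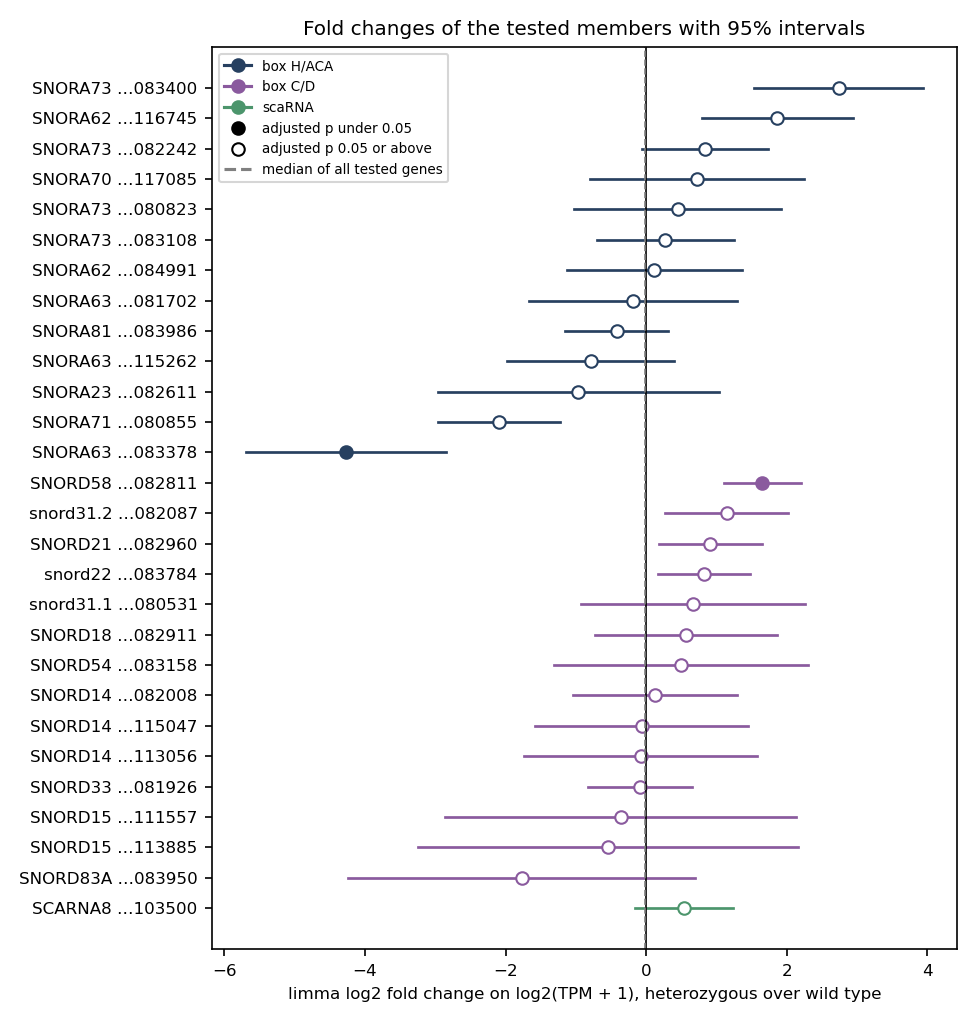
Fitted log2 fold change of each tested member, heterozygous over wild type, with its 95% interval, by class. Filled points mark an adjusted p under 0.05 over all tested genes, which SNORA63 copy ENSDARG00000083378 (-4.27) and SNORD58 reach. SNORD58 was at 0 in all wild-type pools and passed the filter through the heterozygous pools alone. Its point is drawn but not read as a result. The dashed line is the median of all tested genes (-0.02).

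Among box H/ACA genes, SNORA63 gave the largest difference. In human cells this RNA guides pseudouridine formation in the large-subunit ribosomal RNA. Its copy ENSDARG00000083378 stood at 66.4, 45.8 and 43.4 TPM across wild-type pools, against 3.28, 0 and 3.57 TPM across heterozygous pools. All wild-type pools lay far above all heterozygous pools. Its log2 fold change was -4.27 ± 0.60 (SE, 95% interval -5.69 to -2.85, limma adjusted p = 0.026), and the mean of the wild type was 22.7 times that of the heterozygotes. With 1 library left out the log2 fold change ran from -4.65 to -3.55, but the call was lost without wild-type pool 2 or 3 (limma adjusted p = 0.079 and 0.11) and without heterozygous pool 1 or 3 (limma adjusted p = 0.059 and 0.054). In the fit lacking both wild-type pools 2 and 3 the log2 fold change was -4.65 (limma adjusted p = 0.23).

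The other copies of SNORA63 were low. ENSDARG00000115262 stood at 11.3, 2.08 and 4.65 TPM across wild-type pools, against 3.28, 2.49 and 1.78 TPM across heterozygous pools, which overlapped (log2 fold change -0.79 ± 0.50, limma adjusted p = 0.49). ENSDARG00000081702 stood at 3.32, 0 and 1.58 TPM and at 1.67, 0 and 1.81 TPM. The difference in the sum therefore came mostly from 1 copy. Summed over the 3 copies SNORA63 was at 81.1, 47.9 and 49.6 TPM across wild-type pools, against 8.23, 2.49 and 7.16 TPM across heterozygous pools, and the sum was called (log2 fold change -3.20 ± 0.43, limma adjusted p = 0.021). The call of the sum was lost without wild-type pool 2 or 3 and without heterozygous pool 3 (limma adjusted p = 0.056, 0.094 and 0.065). Lacking both wild-type pools 2 and 3, its log2 fold change was -3.68 (limma adjusted p = 0.18).

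SNORA71, which in human cells guides pseudouridine formation in the small-subunit ribosomal RNA, was also lower without passing the threshold. Copy ENSDARG00000080855 stood at 36.1, 15.5 and 23.0 TPM across wild-type pools, against 6.96, 3.98 and 3.76 TPM across heterozygous pools. Every heterozygous pool lay below every wild-type pool, and the log2 fold change was -2.09 ± 0.37 (SE, limma adjusted p = 0.054). With wild-type pool 1 or 2 left out it passed the threshold (limma adjusted p = 0.035 and 0.049). It did not pass without wild-type pool 3 or heterozygous pool 1, 2 or 3 (limma adjusted p = 0.19, 0.091, 0.196 and 0.21), nor in the fit lacking both wild-type pools 2 and 3 (log2 fold change -2.69, limma adjusted p = 0.13). The other copy of SNORA71 was at 0 in all libraries, so its sum is the same gene.

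SNORA73, which in vertebrates acts in the cutting of the ribosomal RNA precursor rather than in its modification, had 4 copies above the filter. Copy ENSDARG00000083400 stood at 2.75, 0.443 and 0.653 TPM across wild-type pools, against 10.4, 8.26 and 24.1 TPM across heterozygous pools. The groups did not overlap, and the log2 fold change was 2.74 ± 0.50 (SE, limma adjusted p = 0.064). Without wild-type pool 1 this copy was called (limma adjusted p = 0.019). With wild-type pools 2 and 3 left out its log2 fold change was 1.89 (limma adjusted p = 0.34).

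The remaining copies of SNORA73 differed less. ENSDARG00000082242 stood at 10.05, 3.10 and 6.34 TPM and at 10.3, 10.6 and 13.4 TPM. Its groups did not overlap, but only narrowly (log2 fold change 0.84 ± 0.38, limma adjusted p = 0.36). For ENSDARG00000083108 (4.84, 3.10 and 2.98 TPM, then 4.27, 2.31 and 8.68 TPM) and ENSDARG00000080823 (7.54, 1.34 and 1.13 TPM, then 4.01, 1.80 and 6.79 TPM) the genotypes overlapped. The sum of SNORA73 came to 25.2, 7.99 and 11.1 TPM across wild-type pools, against 29.0, 23.0 and 53.0 TPM across heterozygous pools. Wild-type pool 1 lay within the heterozygous range, and the sum was not called (log2 fold change 1.26 ± 0.48, limma adjusted p = 0.30). With wild-type pools 2 and 3 left out, the log2 fold change was 0.16 for ENSDARG00000082242 and 0.37 for the sum. The median over all tested genes was 0.15 in that fit.

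SNORA62, a further guide for large-subunit ribosomal RNA in human cells, was the highest member. Copy ENSDARG00000084991 stood at 41.1, 45.8 and 82.4 TPM across wild-type pools, against 117, 29.1 and 58.0 TPM across heterozygous pools. Heterozygous pools held both its highest and its lowest value (log2 fold change 0.12 ± 0.52, limma adjusted p = 0.93). A second copy, ENSDARG00000116745, was listed at 0 in each wild-type library, whereas heterozygous pools 1 to 3 had 1.19, 1.82 and 6.79 TPM. It was tested only through those heterozygous values, so no p is given. Over its 4 copies SNORA62 had a wild-type mean of 57.5 ± 21.9 TPM and a heterozygous mean of 72.5 ± 42.4 TPM (SD, n = 3 each). The remaining tested box H/ACA genes, SNORA81, SNORA23 and SNORA70, had at most 8.66 TPM in any library and overlapped between the genotypes.

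**Figure D4:**
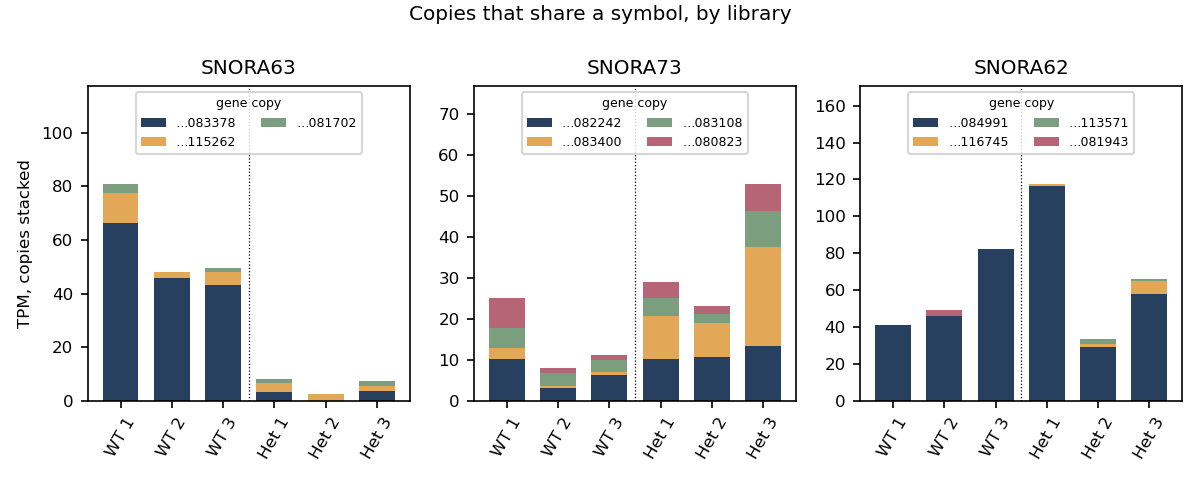
TPM of the copies that share the symbol SNORA63, SNORA73 or SNORA62, stacked for each library (each vertical axis starts at 0 and has its own range, wild-type pools left of the dotted line). One copy of SNORA63 makes up most of the wild-type bars, 45.8 of 47.9 TPM in pool 2. The heterozygous SNORA63 bars are low as a whole. That copy is 3.28 of 8.23 TPM in heterozygous pool 1, 0 of 2.49 TPM in pool 2 and 3.57 of 7.16 TPM in pool 3. The copies of SNORA73 share their bars more evenly than those of SNORA63 share the wild-type bars.

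Among box C/D genes, SNORD58 was detected in the heterozygous pools only. In human cells it guides ribose methylation of the large-subunit ribosomal RNA. Copy ENSDARG00000082811 was listed at 0 in each wild-type library, whereas heterozygous pools 1 to 3 had 1.26, 2.95 and 2.49 TPM. The other copy was at 0 in all libraries, so its sum is the same gene. It passed the filter through the heterozygous pools alone, so its p and its fitted log2 fold change are not read as a result. No ratio of means is given against a group at 0. In the fit with no filter, which keeps every gene above 0 in any library, it was not called (limma adjusted p = 0.063).

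The most abundant box C/D genes were higher in the heterozygotes without passing the threshold. snord31.2, a methylation guide for large-subunit ribosomal RNA, stood at 14.4, 18.7 and 38.0 TPM across wild-type pools, against 42.6, 57.3 and 49.6 TPM across heterozygous pools. The 3 heterozygous pools were all above the 3 wild-type pools (log2 fold change 1.15 ± 0.37, limma adjusted p = 0.24). snord22, named after an RNA that in Xenopus is needed for small-subunit ribosomal RNA processing, stood at 9.95, 10.7 and 15.9 TPM and at 28.5, 20.4 and 17.9 TPM, again without overlap (log2 fold change 0.82 ± 0.28, limma adjusted p = 0.25). Leaving out wild-type pools 2 and 3, the log2 fold change was 1.72 for snord31.2 (ENSDARG00000082087) and 1.06 for snord22 (ENSDARG00000083784). SNORD21 (ENSDARG00000082960), a large-subunit guide, also did not overlap, with 1.90, 4.28 and 1.82 TPM across wild-type pools, against 5.78, 4.45 and 6.79 TPM across heterozygous pools. It was not called either (log2 fold change 0.91 ± 0.31, limma adjusted p = 0.25). With its second copy added, the sum of SNORD21 overlapped, because wild-type pool 2 then had 5.98 TPM.

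The other 10 tested box C/D genes overlapped between the genotypes. snord31.1 stood at 11.3, 1.48 and 5.65 TPM and at 10.5, 13.95 and 3.73 TPM. SNORD83A stood at 11.7, 4.38 and 7.33 TPM across wild-type pools, against 0, 13.3 and 0 TPM across heterozygous pools, so that the heterozygous pools held both extremes (log2 fold change -1.77 ± 1.04, limma adjusted p = 0.46). SNORD15 shifted between copies: ENSDARG00000113885 held 19.5 TPM in heterozygous pool 1 and was at 0 in heterozygous pools 2 and 3, where ENSDARG00000111557 held 5.52 and 15.4 TPM and was at 0 in pool 1.

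Summed over its 3 copies SNORD15 stood at 18.5, 4.68 and 7.60 TPM across wild-type pools, against 19.5, 5.52 and 15.4 TPM across heterozygous pools. The log2 fold changes of the 2 tested copies were -0.54 and -0.36, and that of the sum was 0.40, so copies and sum differed in sign. SNORD14, an RNA that acts in small-subunit ribosomal RNA processing and modification in yeast and vertebrates, had 3 tested copies with log2 fold changes from -0.08 to 0.12. Its sum was 20.9, 8.27 and 8.97 TPM across wild-type pools, against 16.7, 12.9 and 9.79 TPM across heterozygous pools, which overlapped. The sums of SNORD18 and SNORD33 overlapped too, with log2 fold changes of 0.32 and -0.09.

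SCARNA8, which in human cells guides modification of a spliceosomal RNA, was the tested scaRNA gene. It stood at 7.59, 3.91 and 4.35 TPM across wild-type pools, against 6.05, 9.29 and 8.42 TPM across heterozygous pools, with wild-type pool 1 inside the heterozygous range (log2 fold change 0.53 ± 0.29, limma adjusted p = 0.44). SCARNA14 was above 0 in wild-type pool 3 alone, at 2.90 TPM.

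The 78 genes carry 52 symbols, of which 15 have 2 or more copies that together take in 41 genes. With copies summed, 19 symbols were tested in a table of 16528 rows, and 2 passed the threshold, against 1.37% of all rows. They were SNORA63 and SNORD58, the latter again at 0 in every wild-type pool. The genotypes did not overlap for 5 of the 19 sums, against 21.7% of all rows, and 13 of the 19 had a positive log2 fold change. SNORD58 is counted in both, although the filter had fixed its direction.

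The low values moved in steps. Among the 1901 listed copies of 5S ribosomal RNA, an RNA of nearly fixed length, the most common value above 0 was between 1.60 and 2.54 TPM in each library, shared by 12 to 26 copies, and a further 6 to 10 copies stood at exactly double that value (within a relative tolerance of 0.0001). Some members did so too. SNORD14 (ENSDARG00000115047 and ENSDARG00000082008) stood in whole-number ratios in all 6 libraries, such as 4 to 3 in wild-type pool 1 and 1 to 5 in heterozygous pool 3, although the third copy, ENSDARG00000113056, was at 0.233 times ENSDARG00000082008 in wild-type pool 1, no ratio of whole numbers with a denominator up to 12. Copies ENSDARG00000083378 and ENSDARG00000115262 of SNORA63 stood at 41 to 7, 22 to 1 and 28 to 3 in the wild-type pools and at 1 to 1 and 2 to 1 in heterozygous pools 1 and 3. The sources used here give neither gene lengths nor read numbers, so whether a step is 1 read was not tested. These copies were chosen for the comparison after their values were seen. A step in TPM depends on gene length, so the 5S values are only a rough scale for genes of other lengths. On that scale SNORD58, at no more than 2.95 TPM, was of the size of such steps. SNORD21 (ENSDARG00000082960) was of that size in wild-type pools 1 and 3, at 1.90 and 1.82 TPM. So was SNORA62 copy ENSDARG00000116745 in heterozygous pools 1 and 2, at 1.19 and 1.82 TPM. In heterozygous pool 3 that copy had 6.79 TPM, above the doubled 5S value of 4.26 TPM there. The wild-type values of SNORA63 copy ENSDARG00000083378 were many steps above 0.

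Other small structured RNAs gave a comparison. Of the members 41.0% were at 0 in all libraries and 35.9% were tested. Of 2733 other small RNA genes (5S and 5.8S ribosomal RNA, spliceosomal and other U RNAs, signal recognition particle, vault and microRNA genes and the like) 72.6% were at 0 and 6.33% were tested. Among the tested ones 18 of 173 were called, all of them copies of 5S ribosomal RNA, 11 higher and 7 lower, and 0 of the 43 others were called by limma. The median log2 fold change was 0.21 over the 173 and 0.20 over the 28 members, and the groups did not overlap for 21.4% and 32.1%. The 28 include the 2 members at 0 in every wild-type pool, whose sign and separation the filter had fixed. Among the 26 members above 0 in both genotypes the groups did not overlap for 26.9%. The 173 were not sorted in this way, so their calls may include genes whose direction the filter had fixed. The summed TPM of the 29 genes named U3, which encode a box C/D RNA that the symbol rule does not take in, was 5.86, 5.20 and 5.22 for wild-type pools 1 to 3, and 3.25, 3.55 and 12.8 for heterozygous pools 1 to 3.

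Genes listed as human hosts of some of these RNAs, which carry them in introns, were set beside them. The list may not give every human host. No such gene is given here for SNORA62, SNORA71, SNORD58, snord22 or snord31.2. Positions of the zebrafish genes were not used here, so whether these genes are hosts in zebrafish was not tested. EIF4A2, an initiation factor gene that is the human host of SNORA63 and SNORA81, stood at 37.9, 29.8 and 40.7 TPM across wild-type pools, against 53.8, 37.98 and 38.9 TPM across heterozygous pools (log2 fold change 0.26 ± 0.24, limma adjusted p = 0.62). Its groups overlapped. RCC1, listed here as a human host of SNORA73, stood at 18.6, 64.8 and 34.7 TPM and at 28.0, 26.3 and 25.7 TPM (log2 fold change -0.38). That assignment was taken as listed and was not tested. Pool 2, which held the most egg transcripts, was the highest for RCC1 and the lowest wild-type library for SNORA73 as a sum, and the part of those transcripts in either was not tested.

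Other genes listed as human hosts also showed no call. gas5, a noncoding host gene in human of the relatives of snord74, snord75, snord79 and snord80, stood at 21.2, 20.1 and 24.4 TPM across wild-type pools, against 32.1, 31.0 and 32.3 TPM across heterozygous pools (log2 fold change 0.52 ± 0.19, limma adjusted p = 0.28). The members named after those RNAs were at 0 in all libraries. The ribosomal protein genes RPL5 (2 copies), RPL3, rps20, rps3 and RPL13A, human hosts of SNORD21, SNORD83A, SNORD54, SNORD15 and SNORD33, had log2 fold changes from 0.11 to 0.41, and none was called. Others were negative. haus6, the human host of SCARNA8, stood at 8.58, 139 and 35.97 TPM across wild-type pools, against 10.7, 9.71 and 7.54 TPM across heterozygous pools (log2 fold change -1.84, limma adjusted p = 0.39). It was high in the same wild-type pools 2 and 3 as the egg transcripts. IPO7 (SNORA23) was at -0.46, the pair named EIF4G2 (SNORD97) at -0.52 and -0.39, and the abundant HSPA8 gene (SNORD14) at -0.15, while a second, low HSPA8 gene was at 0.41.

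Genes listed for the cores of the snoRNA particles, their assembly, Cajal bodies and RNA end trimming were measured as 5 lists, with 56 of 57 matched genes tested. Not all of their proteins bind or process these RNAs, GEMIN7 of the Cajal body list being an example. limma called 0 of the 56 over all genes, with 3 at an unadjusted p under 0.05, against 1.37% and 15.0% of all tested genes. Core proteins of both particle types had positive values. FBL, the methylating enzyme fibrillarin of the box C/D particle, stood at 102, 100.2 and 115 TPM across wild-type pools, against 160, 161 and 146 TPM across heterozygous pools. Its groups were well apart (log2 fold change 0.55 ± 0.18, limma adjusted p = 0.24). The other box C/D core genes, NOP56, NOP58 and the pair named SNU13, were positive as well, with a median of 0.29 over the 5.

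DKC1, the pseudouridine synthase dyskerin of the box H/ACA particle, stood at 69.2, 60.1 and 65.1 TPM across wild-type pools, against 92.7, 90.7 and 97.8 TPM across heterozygous pools. Again the groups did not overlap (log2 fold change 0.53 ± 0.18, limma adjusted p = 0.25). NOP10, a small partner of dyskerin, stood at 53.0, 94.6 and 76.1 TPM and at 108, 101 and 106 TPM. GAR1, another partner, overlapped, at 19.1, 36.6 and 27.5 TPM and 32.2, 31.8 and 29.6 TPM. The 4 core genes of the box H/ACA particle had a median log2 fold change of 0.39.

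The lists for assembly, Cajal bodies and trimming of the RNA's end had mostly negative values, in 11 of 16, 15 of 15 and 13 of 16 genes, with medians of -0.19, -0.61 and -0.20. These genes were highest in the libraries with egg transcripts: 10, 15 and 12 of them had their highest value in wild-type pool 2. GEMIN7, of the complex that assembles spliceosomal particles, stood at 19.6, 213 and 108 TPM across wild-type pools, against 27.2, 22.5 and 20.8 TPM across heterozygous pools. Wild-type pool 1 lay below every heterozygous pool. ZNHIT3, an assembly factor of box C/D particles, stood at 9.23, 171 and 39.8 TPM and at 11.8, 10.3 and 9.72 TPM. parn, a nuclease that trims the ends of box H/ACA RNAs, stood at 12.7, 108 and 52.7 TPM and at 16.5, 14.9 and 17.8 TPM.

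SHQ1, a chaperone of dyskerin, was the lowest in p among the assembly genes, at 3.57, 11.1 and 6.62 TPM and 3.30, 2.69 and 2.47 TPM (log2 fold change -0.98 ± 0.37, limma adjusted p = 0.29). In the fit lacking wild-type pools 2 and 3 the medians of these lists were 0.26, 0.15 and 0.35, and those of the box C/D and box H/ACA core lists 0.60 and 0.79, beside 0.15 over all tested genes. Without wild-type pool 1 limma called 4 of the 56, ZNHIT3, GEMIN7, SHQ1 and parn, all lower in the heterozygotes (limma adjusted p from 0.016 to 0.046). In that fit 6.58% of all genes were called, 5.36% lower, so this share is near the background. Of the core genes, 4 of 5 for the box C/D particle and 2 of 4 for the box H/ACA particle had positive values there.

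**Figure D5:**
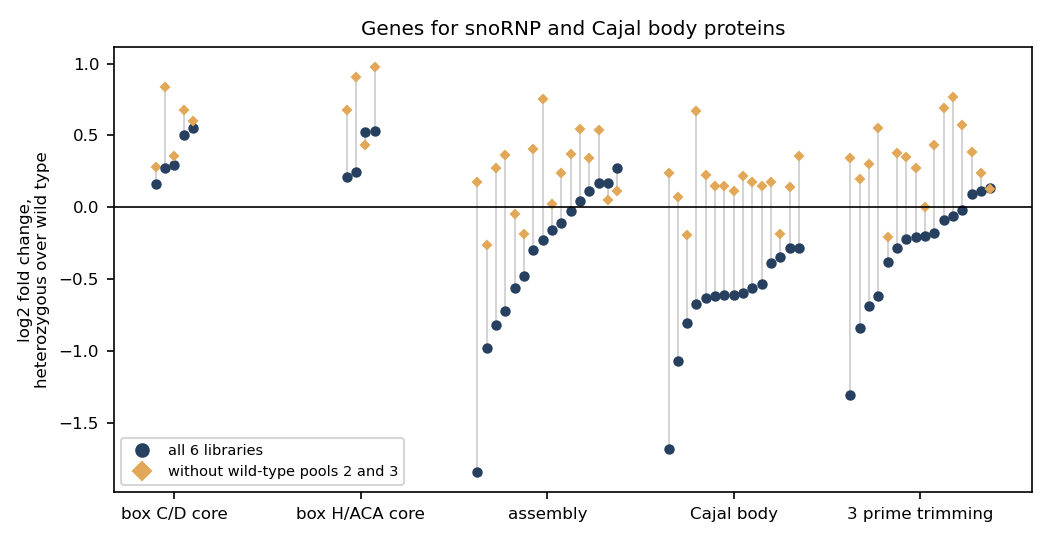
Log2 fold change (heterozygous over wild type, vertical axis) of each tested gene of the 5 protein lists, in the fit over all 6 libraries (circles) and in the fit without wild-type pools 2 and 3 (diamonds), with a line joining the values of a gene. The core lists are above 0 in both fits, and most genes of the other lists move from below 0 to above it.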

How the data were processed

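The authors deposited a single file of TPM values for the 6 libraries. The submitters' processing notes name FastQC, HISAT2 2.0.4, featureCounts and build GRCz11. No annotation, gene length, strand setting or rule for multimapping reads is stated in the sources used here, so near-identical copies and genes that overlap another gene are uncertain. TPM keeps no depth, so no counting interval is given.

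Gene IDs were given symbols through a name list (28988 of 32057 matched). Log2(TPM + 1) values of genes with at least 1 TPM in at least 3 libraries were fitted with limma 3.58.1 in R 4.3.3, with genotype as the only term and a mean trend in the variance, and p-values were adjusted by the Benjamini-Hochberg method over all tested genes. The pseudocount of 1 understates changes of low genes. Copies with 1 symbol were summed before the log, in a table refitted whole. The steps were tested on simulated data.

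Named were called members, the 6 highest members of a class, the 3 of smallest p per class and direction, sums over copies and the 3 genes of smallest p per protein list. Members and lists were chosen with earlier results of these data known, and SNORD21, U3 and the human host genes after their values were seen. The labels do not say that replicate numbers mark shared fish or batches. P-values measure the spread between pools. Alternatives covered the pseudocount, filter, scaling, trend, replicate block, threshold and libraries left out. Sequences of these RNAs and zebrafish host positions are not reported here.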

Additional observations from a re-analysis of the deposited data

How the results depend on the processing

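SNORA63 copy ENSDARG00000083378 stayed called under median ratio scaling, quantile normalization and no variance trend. It also stayed called with a fixed total without globin and mitochondrial genes, and with members and 5S copies kept out of the fixed total. SNORD58 was called in these fits too. They all kept the filter that SNORD58 passed through the heterozygous pools alone, so its calls are not read as a result. With a pseudocount of 0.1, 2 members were called higher and 0 lower (SNORD58 and SNORA62 copy ENSDARG00000116745, the members at 0 in every wild-type pool that the filter took in through the heterozygous pools alone, and SNORA63 copy ENSDARG00000083378 was at limma adjusted p = 0.14). With a pseudocount of 5, 1 member was called, lower, 0 higher and 0 of box C/D, and 1 symbol sum. With a filter at 5 TPM, 1 member was called, lower, 0 higher and 0 of box C/D, and 1 sum. With no filter, 0 members, 0 sums and 0 genes of each class were called by limma (8 members at an unadjusted p under 0.05), and the median log2 fold changes were -0.13 for box H/ACA, 0.03 for box C/D and -0.061 for the 2 scaRNA genes. At an adjusted p under 0.1, 4 members were called, 2 higher and 2 lower, 3 of them box H/ACA. The higher ones include SNORD58, whose direction the filter had fixed, and 397 of all 16537 tested genes were called. All genes called were 224 with a pseudocount of 0.1, 154 with a pseudocount of 5, and 117 of 9755 with a filter at 5 TPM. With no filter limma called 132 of 28762 genes, and 3873 had an unadjusted p under 0.05. Without wild-type pools 2 and 3, 0 members, 0 higher, 0 lower, 0 box H/ACA, 0 box C/D and 0 sums were called, and the medians were -0.13 for box H/ACA, -0.11 for box C/D and 0.037 for scaRNA.

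With the replicate number as a block, 0 members (0 higher, 0 lower, 0 box H/ACA, 0 box C/D) and 0 sums were called. Of all 16537 tested genes 25 were called in that fit. An unadjusted limma p under 0.05 was found there for 6 of the 28 members and 2087 of all genes. Deviations of same-numbered libraries correlated at -0.27, 0.12 and -0.13, and those of differently numbered libraries at -0.33 to 0.37. With 3 libraries per genotype that differ in other tissue, these correlations cannot settle whether the numbers mark shared batches.

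Leaving out 1 library at a time gave 0 to 4 members called, 0 to 2 higher, 0 to 2 lower, 0 to 3 of box H/ACA, 0 to 2 of box C/D, 0 to 3 sums and 0 to 4 protein genes. Over all 16537 tested genes the same fits called 90 to 1088. The 4 members and the 1088 genes came from the fit without wild-type pool 1, and SNORD58 was among those 4. The class medians ran from -0.30 to 0.61 for box H/ACA, 0.03 to 0.49 for box C/D and 0.38 to 0.78 for scaRNA. Leaving out 1 library also turned the sign for SNORA62 copy ENSDARG00000084991 (-0.38 to 0.61), SNORA63 copy ENSDARG00000081702 (-0.77 to 0.30), SNORA73 copy ENSDARG00000083108 (-0.13 to 0.64), SNORD14 copies ENSDARG00000115047 (-0.56 to 0.49), ENSDARG00000082008 (-0.24 to 0.55) and ENSDARG00000113056 (-0.58 to 0.78), SNORD15 copies ENSDARG00000111557 (-1.26 to 0.76) and ENSDARG00000113885 (-1.99 to 0.18), the sums of SNORA62 (-0.22 to 0.67), SNORD14 (-0.094 to 0.53), SNORD18 (-0.19 to 0.68) and SNORD33 (-0.41 to 0.13), and GAR1 (-0.024 to 0.43). Of 46 named results, 25 kept their sign under every alternative run.

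The sign turned for low or uncalled genes. Without wild-type pools 2 and 3 it turned for SNORA73 copies ENSDARG00000083108 (-0.079) and ENSDARG00000080823 (-0.84), snord31.1 (-0.40), SNORD14 copies ENSDARG00000082008 (-0.73) and ENSDARG00000113056 (0.17), the sums of SNORD14 (-0.66), SNORD15 (-0.59) and SNORD18 (-0.41), and parn (0.34), exosc3 (0.198), GEMIN7 (0.24), gemin6 (0.068) and ZNHIT3 (0.18). With a pseudocount of 5 it turned for SNORD15 copy ENSDARG00000113885 (0.082) and SNORD14 copy ENSDARG00000113056 (0.077), and under quantile normalization for SNORD14 copies ENSDARG00000115047 (0.0055) and ENSDARG00000113056 (0.0071). The cause was not tested. Depth is unknown, and values near 2 TPM may rest on single steps.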
